A study of Homo sapiens with 2 samples.

Results

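The major histocompatibility complex (MHC) is the stretch of the short arm of chromosome 6 that was taken here as 29.6 to 33.2 Mb of build hg19. It held 67 of the 161869 nascent strand intervals of the series. Members were chosen by position alone, and the complex was split into class I (29.6 to 31.5 Mb, 17 intervals), class III (31.5 to 32.2 Mb, 40 intervals) and class II (32.2 to 33.2 Mb, 10 intervals). No interval crossed a border (0 of 67), and the other 5729 intervals of chromosome 6 served for comparison.

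Nascent strand sequencing isolates short nascent DNA, which its RNA primer shields from digestion by lambda exonuclease, and so marks places where replication starts. The cells were wild-type U2OS, a line grown from a human osteosarcoma, arrested at G1/S by a double thymidine block and collected at the 2 hour point. The 2 libraries form 1 group, without an unsynchronised or undigested control here. The deposited lists are named as intersections of both libraries, and the broad peak list holds pieces of peaks that both share. The intervals of the timing lists reach beyond these pieces. In the complex the pieces cover 44.5% of interval bases, and on the rest of chromosome 6 they cover 55.8%. No label says that the libraries came from separate cultures. Because both enter each value as 1 shared set, the parts were compared without a test, and the 95% intervals given cover counting error only. Neighbouring intervals are not independent, so these are likely too narrow. The number of reads behind each value is unknown.

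The complex is among the most gene-rich and most variable regions of the human genome. Its class I genes encode molecules that show peptides from inside the cell to T cells, and its class II genes (HLA-DR, HLA-DQ and HLA-DP) encode molecules that show peptides taken up from outside. Class III, between them, holds no such genes but those for complement C2, factor B and the tandemly duplicated C4, the cytokine TNF and many housekeeping proteins. The junction of class III and class II is known as a place where replication timing switches, with class III the earlier side. Between HLA-F and MICB, RefSeq (GRCh38.p14, used for the order of genes only) lists 49 protein-coding genes, against 58 between DDX39B and NOTCH4 in class III and 24 between BTNL2 and RING1 in class II. Gene positions in hg19 were not used here, so no interval is assigned to a gene, and no sequence is printed.

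Intervals were sparse in class I and class II and dense in class III. Class III had 57.1 intervals per Mb (exact 95% Poisson interval 40.8 to 77.8). Class I had 8.95 per Mb (5.21 to 14.3) and class II 10.0 per Mb (4.80 to 18.4). The density in class III was thus 6.39 times that in class I (exact 95% binomial interval 3.54 to 12.0) and 5.71 times that in class II (2.81 to 12.8). Both ratios owe much to the bases from 31900001 to 32100000, which held 24 of the 40 class III intervals at 120 per Mb. The stretches of class III before and after them had 30 and 40 per Mb, still above class I and class II. Class I and class II did not differ beyond counting error, with a ratio of 0.895 and an interval of 0.387 to 2.19.

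Against the rest of chromosome 6, with 34.2 intervals per Mb, the whole complex was at 0.544 times that density, with 18.6 per Mb (14.4 to 23.6). Class I stood at 0.261 times and class II at 0.292 times, while class III stood at 1.67 times (1.19 to 2.27). These ratios depend on the comparison: against the rest of the short arm alone they were 0.307 for the complex, 0.148 for class I and 0.165 for class II. The class II ratio was 0.0974 without the last 100 kb of the complex and 0.468 with all borders 100 kb downstream. The class III ratio rests on 1 stretch: without the bases from 31900001 to 32100000 it was 0.935, and against the rest of the short arm it was 0.943. Intervals covered 3.59% of class III, 0.365% of class I and 0.574% of class II, against 2.41% of the rest of the chromosome. Among 46 other windows of 3.6 Mb laid end to end along chromosome 6, 27 held fewer intervals than the complex and 19 held more.

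**Figure D1:**
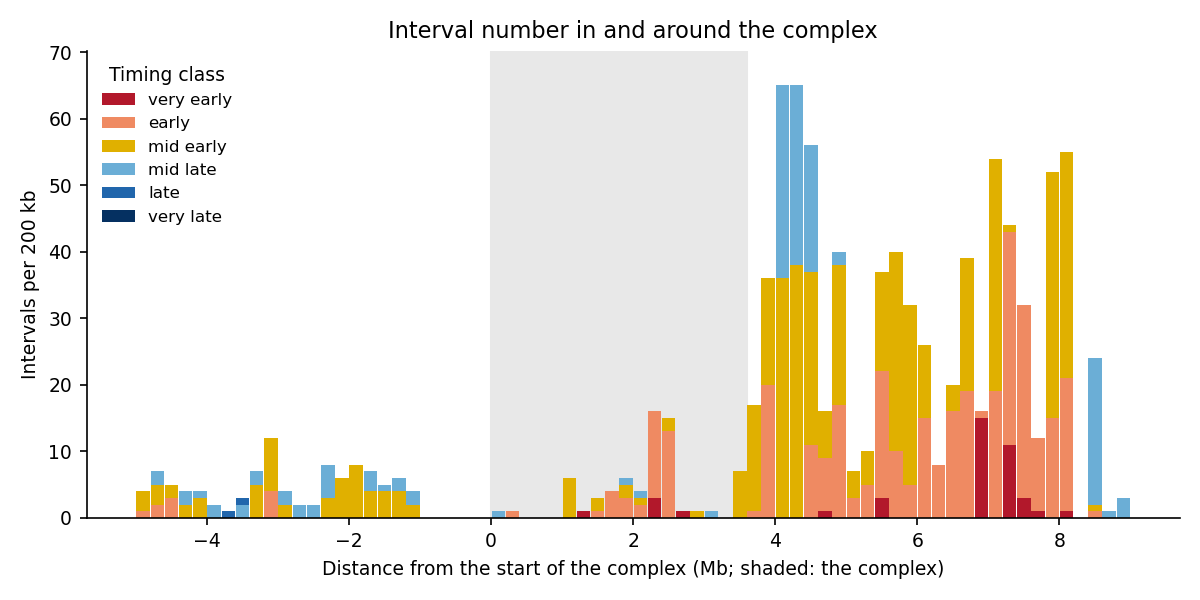
Number of nascent strand intervals per 200 kb (bars, coloured by timing class) from 5 Mb before the start of the complex to 9 Mb after it, with the complex shaded. No interval lies in the 1 Mb before the complex, 67 lie within it and 239 lie in the 1 Mb after it.

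The borders of the complex looked unlike each other. On the telomeric side no interval was listed in the 1 Mb before 29.6 Mb (0 intervals). The last one before it, a mid late interval ending at 28521440, lay 1177 kb from the first interval inside. The numbering of the replicate 1 peaks, described with the gaps inside the complex, leaves room for 5 peaks of replicate 1 in this gap that were not shared. On the centromeric side the last 100 kb of the complex and the first 100 kb after it held 7 intervals each, all of them mid early. The 1 Mb after the complex held 239 intervals, with a median fold enrichment of 5.67 and a median width of 937 bp, against 4.32 and 488 bp in the complex.

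The timing lists sort the intervals into 6 classes from very early to very late. The sources used here give neither the timing data nor the rule behind the lists. In the complex 37 intervals were early, 21 mid early, 5 very early and 4 mid late. None was late or very late (0 of 67), which allows a share of up to 4.48% by a count of 3. On the rest of chromosome 6 the late and very late classes made up 12.7% (728 of 5729). Their absence was not particular to the complex: the 1 Mb after it had none either (0 of 239), and the 1 Mb before it held no interval. The very early and early classes together made up 62.7% of the complex (exact 95% binomial interval 50.01% to 74.2%) and 29.67% of the rest (28.5% to 30.9%). That share was higher than in 43 of the 46 other windows.

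The parts of the complex differed in timing. In class III 33 of 40 intervals were very early or early, or 82.5% (67.2% to 92.7%), and 30 of these 33 were in the early class. Class I was mixed, with 8 of 17 (47.1%, 23.0% to 72.2%). Its other intervals were 8 mid early and 1 mid late. Class II had 1 of 10 (10.0%, 0.253% to 44.5%), with 8 mid early, 1 mid late and no early interval (0 of 10, which allows up to 30%). The ranges in brackets for class III and class II did not overlap, but they treat neighbouring intervals as independent draws. Timing came in runs, so this is no test of a difference. Runs of 17 and 9 early intervals gave most of the class III share, and 7 class II intervals formed 1 run. Without the bases from 31900001 to 32100000 the class III share was 68.75%. The class II share depends on where the border lies. With all borders 100 kb upstream it was 71.4%, against 81.1% in class III. With all borders 100 kb downstream it was 0%, against 88.9% in class III.

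**Figure D2:**
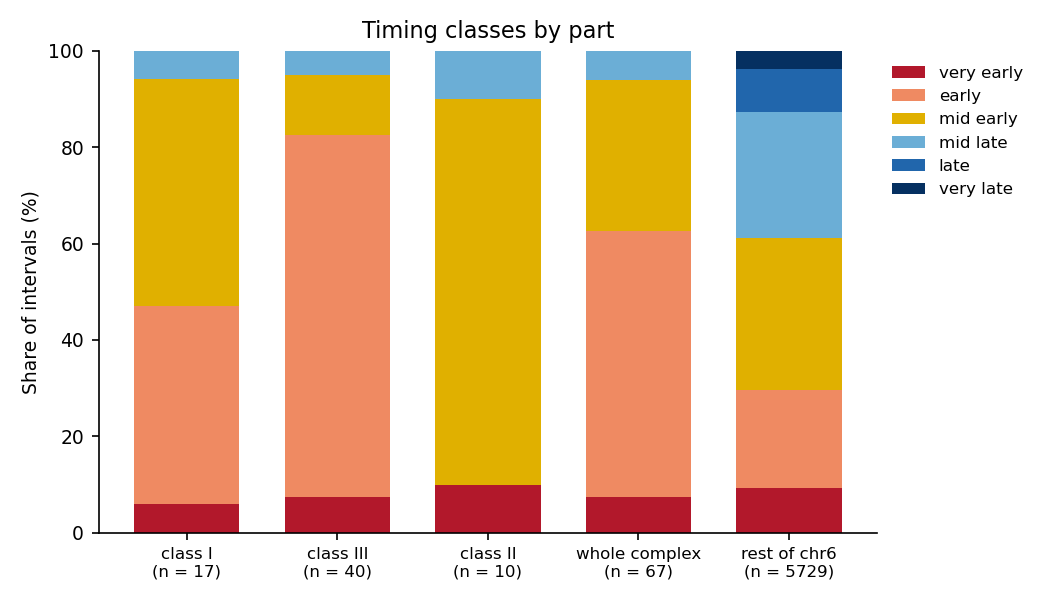
Share of intervals in each timing class (%, stacked bars) for class I, class III, class II, the whole complex and the rest of chromosome 6, with the number of intervals under each bar. Early intervals fill most of the class III bar (75%) and mid early ones most of the class II bar (80%), and only the rest of chromosome 6 shows late and very late intervals.

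Along the complex the 67 intervals formed 19 runs of like timing. The first 2 intervals, mid late and early, stood alone. A run of 6 mid early intervals followed from 30652300 to 30710090, then a lone very early one from 30866251 to 30866998. From 31234842 to 31543187 a run of 7 early intervals crossed from class I into class III. Inside class III the order was mid early, mid late, mid early, early and very early before the longest run, 17 early intervals from 31934615 to 32018501. After 2 mid early intervals, 9 more early ones reached 32187622. The very early interval from 32222530 to 32223017 was the first of class II, and no early or very early interval followed it in the complex. The next 2 were mid early and mid late, and the last 7, from 33136029 to 33182052, were all mid early.

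Neighbours in the complex had the same timing class in 48 of 66 pairs (72.7%, exact 95% interval 60.4% to 83.0%), against 85.1% of 5729 pairs elsewhere on chromosome 6 or across the borders (84.1% to 86.0%). At the 18 changes, 15 pairs were neighbouring classes. The other 3 (16.7%) skipped a class, all across gaps of 156 to 267 kb. On the rest of the chromosome 41 of 855 changes (4.80%) skipped a class, across gaps of 29.9 to 4104 kb. The 3 in the complex are too few for a close comparison of these shares, and no interval was computed for them. Changes between neighbouring classes spanned a median gap of 64.3 kb, while pairs of the same class were a median of 4.60 kb apart. Elsewhere these gaps were 30.8 and 4.01 kb, so long gaps and changes of class went together in both.

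The class I intervals were few and left its first 1 Mb nearly empty. From 29.6 to 30.6 Mb there were 2 intervals, which were narrow and had the highest enrichments of class I. The mid late interval from 29698572 to 29698751 was 180 bp wide at 10.4-fold. The early interval from 29962712 to 29962905 was 194 bp wide at 9.88-fold. Fold enrichments are the authors' values for the whole replicate 1 peak that shares most bases with an interval. Between the second of these and the next interval lay 689 kb, the longest gap of the complex.

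From 30.6 to 31.5 Mb class I held 15 intervals in small groups. The first group, in the fullest 100 kb bin of class I, had 5 within 30652300 to 30673530. Its highest was a mid early interval of 485 bp at 6.69-fold from 30653787 to 30654271, and its widest, with 854 bp from 30672677 to 30673530, was the widest of class I at 4.05-fold. The very early interval at 30866251 was 748 bp wide at 6.05-fold. Further on, the early interval from 31234842 to 31235651 was 810 bp wide at 6.22-fold. A trio of early intervals lay within 31372141 to 31380808, and the middle one, from 31377721 to 31378104, had 8.44-fold while its neighbours had 3.82-fold and 3.53-fold. The lowest enrichment of class I was 3.26-fold, from 30709712 to 30710090.

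**Figure D3:**
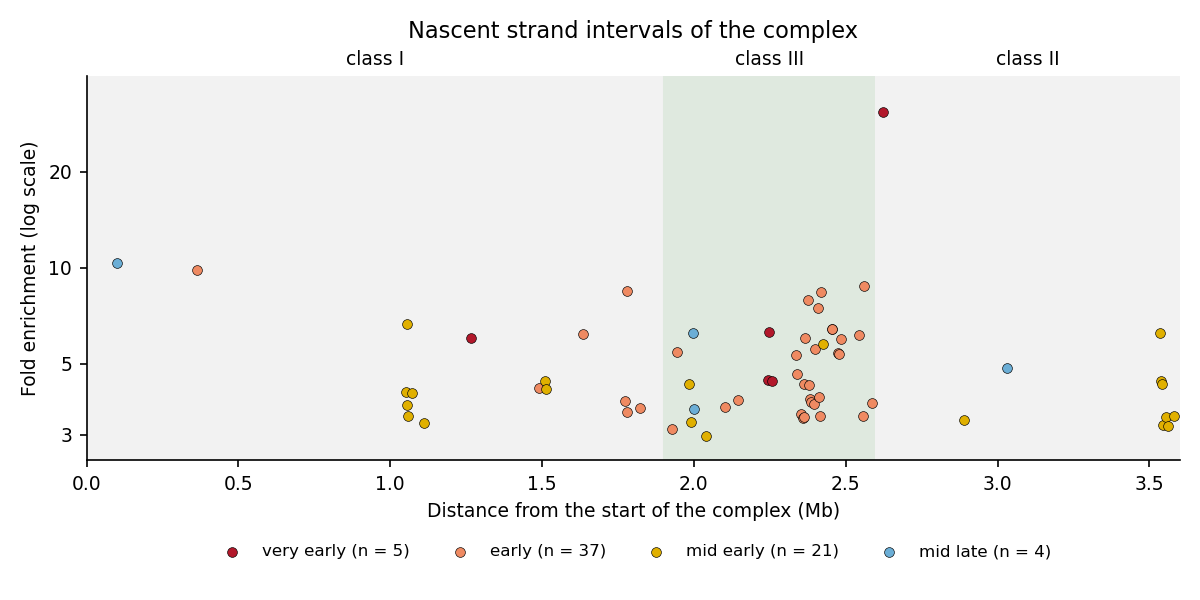
Fold enrichment (log axis) of the 66 intervals that overlap a replicate 1 peak, by distance from the start of the complex (Mb), coloured by timing class (the legend counts all 67); class III is shaded green. Most points lie between 3-fold and 10-fold, with 1 very early interval at 30.7-fold at the start of class II and empty stretches on both sides of class III.

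Class III was occupied in each of its 7 bins of 100 kb, while 9 of 19 bins in class I and 6 of 10 in class II were empty. On the rest of chromosome 6, 35.8% of 1675 bins were empty. The 2 fullest bins of the complex, from 31900001 to 32000000 with 13 intervals and from 32000001 to 32100000 with 11, lay side by side. Together these 0.2 Mb held 24 of the 67 intervals (35.8%), a density of 120 per Mb. They held 22 early and 2 mid early intervals, and 5 of the 6 intervals of the complex that were at least 1 kb wide. The other 0.4 Mb before this stretch had 12 intervals (30 per Mb), of which 3 were very early, 4 early, 3 mid early and 2 mid late.

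Within the dense stretch enrichments were moderate, from 3.37-fold to 8.38-fold with a median of 5.31. The highest was an early interval of 313 bp from 32018189 to 32018501 at 8.38-fold, followed by one of 731 bp from 31975433 to 31976163 at 7.90-fold and one of 187 bp from 32008346 to 32008532 at 7.48-fold. The highest of all class III, at 8.75-fold, lay outside the stretch, from 32159622 to 32160261. The early interval from 32053921 to 32054459, with 6.45-fold, completes the 5 highest of class III when the 8.75-fold one is counted. Wide intervals were not the most enriched. The widest of the complex, 2654 bp from 31993538 to 31996191, had 3.74-fold, the next, 1984 bp from 32009817 to 32011800, had 3.92-fold, and the third, 1738 bp from 32083208 to 32084945, had 5.97-fold. The listed pieces of the peaks that gave these folds covered 6.03%, 16.3% and 47.0% of the 3 intervals, in that order.

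Some distances between class III intervals recurred. When the class III intervals were shifted against themselves by 5 to 100 kb, the overlap of positions was greatest at a shift of 16.36 kb (6.50 kb shared) and, away from there, at 32.78 kb (3.98 kb shared), against a median of 1.37 kb over all shifts. By the number of intervals that overlapped another, neither shift stood apart: 10 did so at 16.36 kb, as many as at 13.5 kb, and 6 at 32.78 kb, against a median of 4. This comparison was chosen after the positions had been seen and has no test. At 16.36 kb, 10 pairs of intervals overlapped, and 3.53 kb of the shared bases came from the 2 pairs in which both intervals were at least 1 kb wide. The folds within the 10 pairs differed by up to 4.53, with a median of 1.76.

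At 32.78 kb, 6 pairs overlapped, all between 31951468 and 32011800, and their folds were close, differing by 0.309 to 0.580. The interval from 31975433 to 31976163 at 7.90-fold was matched by that from 32008346 to 32008532 at 7.48-fold. The interval from 31965490 to 31966147 at 6.03-fold was matched by that from 31998227 to 31998926 at 5.55-fold, and their starts were 32737 bp apart. A wide pair, 1641 bp at 4.30-fold from 31977163 to 31978803 and 1984 bp at 3.92-fold from 32009817 to 32011800, started 32654 bp apart. All intervals in these 6 pairs were early, but this follows from their place inside the run of 17 early intervals and says nothing about the pairing. Whether the underlying sequences are copies of each other was not tested, and the sources used here do not say how reads that fit several places were treated.

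**Figure D4:**
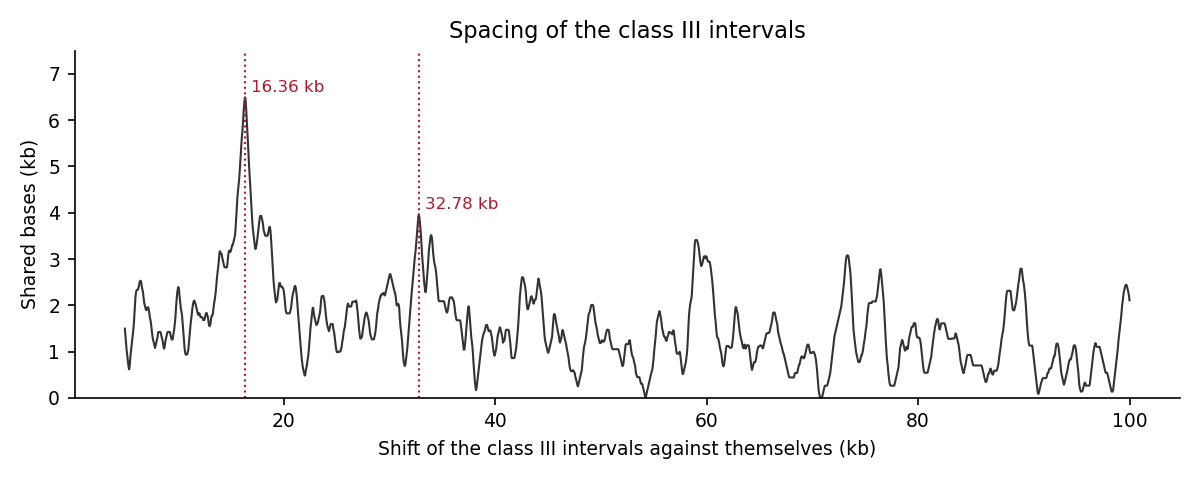
Bases shared (kb) between the class III intervals and the same intervals shifted by 5 to 100 kb (x axis), with dotted lines at the 2 highest maxima. The curve reaches 6.50 kb at 16.36 kb and 3.98 kb at 32.78 kb, against a median of 1.37 kb.

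Class II held 3 intervals in its first 0.9 Mb (3.33 per Mb) and 7 in its last 0.1 Mb. The first of them was the most enriched of the complex, the very early interval of 488 bp from 32222530 to 32223017 at 30.7-fold with a −log10 q of 89.1. The next highest fold in the complex was 10.4. On the rest of chromosome 6 the highest very early interval had 32.4-fold, and the highest of any class, a mid late one, had 120-fold. The mid early interval from 32489582 to 32490123 (542 bp, 3.34-fold) and the mid late one from 32632306 to 32632604 (299 bp, 4.84-fold) stood alone. The last 7, all mid early, ranged from 3.19-fold to 6.25-fold, led by the narrowest of them, 225 bp from 33136029 to 33136253. Its neighbour from 33138172 to 33138495 had 4.42-fold. The widest interval of class II, 966 bp from 33141618 to 33142583, had 4.34-fold, and those of 874 bp from 33181179 to 33182052 and 732 bp from 33160194 to 33160925 had 3.43-fold and 3.19-fold.

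With so few intervals, counting error could not tell the parts apart in median width or median enrichment. Median width was 379 bp in class I (order-statistic 95% interval 194 to 548), 518.5 bp in class III (313 to 640) and 570.5 bp in class II (299 to 874). These 95% intervals overlapped each other and that of the rest of chromosome 6 (475 bp, 458 to 489). By median width among windows of 3.6 Mb, some with as few as 5 intervals, the complex was on the wide side. Its median of 488 bp was higher than in 42 of the 46 other windows, for which the middle value was 357 bp. Wide intervals went the other way: those of at least 1 kb made up 8.96% of the complex (6 of 67), against 20.3% on the rest of the chromosome. They made up 15.0% of class III (6 of 40) and were not seen in class I (0 of 17) or class II (0 of 10). With 0 of 17 and 0 of 10, a count of 3 allows up to 17.6% and 30%. At the narrow end, intervals of 200 bp or less made up 29.4% of class I (5 of 17) and 15.0% of class III (6 of 40). Class II had none (0 of 10), against 14.6% on the rest of the chromosome.

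Median fold enrichment was 4.16 in class I (3.71 to 6.22), 4.42 in class III (3.80 to 5.55) and 3.88 in class II (3.21 to 6.25), and 4.51 on the rest of chromosome 6 (4.46 to 4.57). A fold of at least 10 was reached by 2 of the 66 intervals with a peak (3.03%), against a background of 6.18% on the rest of chromosome 6. Counting error cannot tell these shares apart from so few members. One class III interval, from 32021803 to 32022217, overlapped no listed peak and has no fold.

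**Figure D5:**
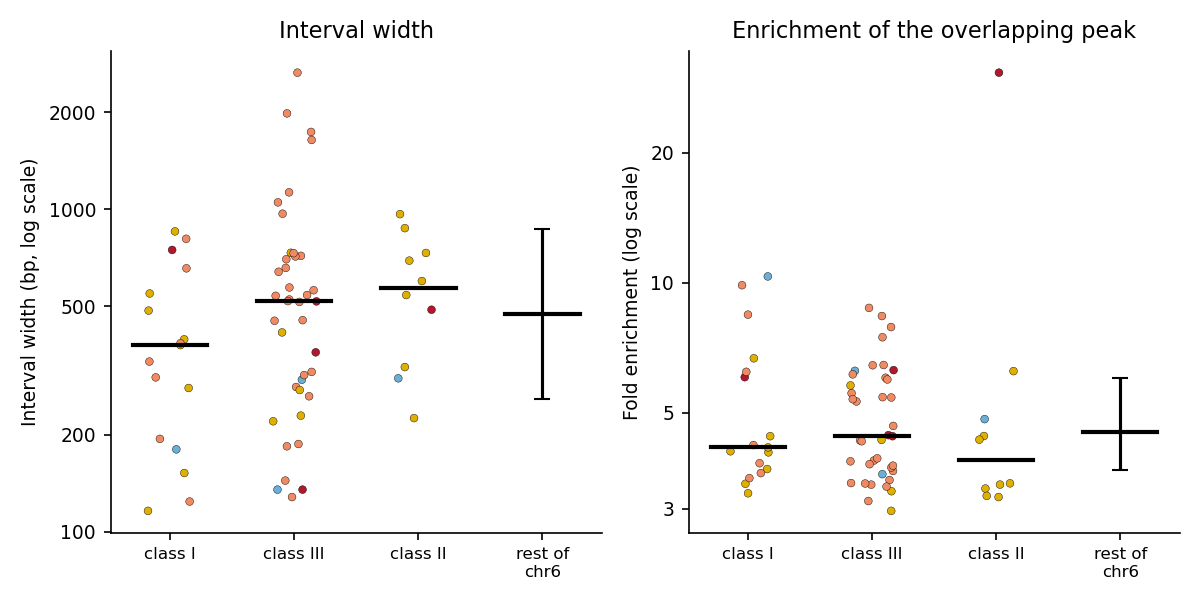
Width (bp, left) and fold enrichment (right) of each interval in class I, class III and class II, both on log axes and coloured by timing class as in the other plots; bars mark medians, and for the rest of chromosome 6 the line spans the quartiles. The medians of the parts lie within the quartiles of the rest of chromosome 6 for both measures.

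The long gaps of the complex were of different kinds. Replicate 1 peaks are numbered along the chromosome, so the numbers missing between 2 listed peaks show how many peaks of replicate 1 lay between them without being in the shared list, if numbering was consecutive. In class II no number was missing in the 267 kb gap after 32223017 (0 peaks) or in the 142 kb gap after 32490123 (0 peaks), so by this count replicate 1 itself had no peak there. The 503 kb gap after 32632604 contained 7 peaks of replicate 1 that were not shared. In class I the 689 kb gap after 29962905 contained 5 such peaks, the 264 kb gap after 29698751 contained 2 and the 222 kb gap after 30866998 contained 7. The 156 kb gap after 30710090 contained 8, while the 136 kb gap after 31235651 contained 0. In class III the 99.2 kb gap after 31745598 contained 8, that of 78.2 kb after 31856460 contained 1, and that of 64.3 kb after 31638933 contained 10.

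Over the whole complex fewer of the replicate 1 peaks were shared than elsewhere on chromosome 6. Of 159 numbers between its first and last listed peak, 67 were listed, or 42.1% (exact 95% binomial interval 34.4% to 50.2%), against 67.0% on the rest of the chromosome (66.0% to 68.0%). The share was 37.8% in class I, 45.5% in class III and 45.5% in class II, and their intervals overlapped. It was lower than in all 46 other windows of 3.6 Mb, which ranged from 43.9% to 100%. In the dense stretch of class III 24 of 37 were listed (64.9%), and the rest of class III without it had 31.37%.

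Replicate 1 alone thus had 44.2 peaks per Mb in the complex and 51.3 per Mb on the rest of chromosome 6, a smaller difference than in the shared list. Within the intervals, listed pieces covered 44.5% of the bases in the complex and 55.8% on the rest of the chromosome. A peak was cut into several pieces by replicate 2 in 1 of 67 cases (1.49%), against 10.7% elsewhere. The broad peak list also held 415 pieces on 7 alternative haplotype contigs of this region, which hg19 carries beside chromosome 6 and which no timing list includes. Their part in the sparseness and in the low shared fraction was not tested.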

How the data were processed

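Nascent strand DNA of 2 U2OS libraries was analysed from 7 deposited files. Per the submitters' processing notes the tools were BWA and MACS2 and the build was hg19, without versions or parameters. In the broad peak list the authors deposited a fold enrichment, a −log10 p and a −log10 q per replicate 1 peak, and a score that was not used. The 6 timing lists deposited by the authors hold a constant score and were used for positions only.

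Each interval name was counted once (5 names of the complex stood on 2 lines) and assigned to a part by its midpoint. It took the fold of the replicate 1 peak sharing most bases, at least 1 bp. The rest of chromosome 6 ran from its first to its last interval. Counts have exact Poisson, shares exact binomial and medians order-statistic 95% intervals. Functions were checked on simulated data. The 5 highest folds, 3 widest intervals and 3 longest gaps per part, the changes of timing and the fullest bins are the named regions. Other positions were named after their values were seen, and the members and lists were chosen with earlier results of these data known. All 101 listed genes matched a RefSeq symbol (GRCh38.p14), but the planned count of genes with an interval could not be made without hg19 gene positions. Calculations ran in Python 3.11.15 with scipy 1.17.1, pandas 2.3.3 and numpy 2.4.6, and plots in matplotlib 3.10.9.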

Additional observations from a re-analysis of the deposited data

Results flagged for a closer look

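The peaks on the 7 alternative haplotype contigs of the MHC entered no comparison above, and each contig held more than 3 pieces, the limit allowed by a count of 0. The contig apd held 12 pieces, mann 42, cox 62, mcf 62, qbl 63, dbb 73 and ssto 101. Together these were 397 replicate 1 peaks with a median fold enrichment of 4.50. Of 840 peak numbers on the contigs 47.3% were listed (exact 95% binomial interval 43.8% to 50.7%), from 37.5% on apd to 55.2% on dbb. This is near the 42.1% of the complex on chromosome 6 and below the 67.0% of its remainder.

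The most enriched piece on 4 of the contigs was alike in width to the 419 bp that the listed piece covers in the 30.7-fold interval of class II. It was 420 bp at 32.8-fold on cox, 409 bp at 33.5-fold on dbb, 431 bp at 25.7-fold on mann and 402 bp at 11.7-fold on qbl. On ssto the top piece was 1127 bp wide at 32.4-fold, on mcf 196 bp at 16.5-fold and on apd 167 bp at 7.76-fold. Positions on the contigs were not aligned to chromosome 6, so whether these are 1 locus was not tested.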

How the results depend on the processing

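Of 136 values recomputed under an alternative, 118 stayed close to the value given above: within 1.5-fold for a density ratio, within the 95% interval otherwise. All 28 median widths did so. Some alternatives counted here could not or did not change the members. Merging intervals within 100 bp joined none in the complex, where the smallest gap was 374 bp. Taking the highest fold among overlapping peaks left each median fold as it was. Against the rest of the short arm the density ratio was 0.307 for the complex, 0.148 for class I, 0.165 for class II and 0.943 for class III, which turned its direction. Over bins with an interval it was 1.07 for class III and 0.470 for class II. At a −log10 q of at least 5 (26 intervals in the complex), class II had a density ratio of 0.190, the very early and early share of the complex was 76.9%, and the median fold was 6.25 in the complex, 7.57 in class I and 6.14 in class III, against 6.19 on the rest of the chromosome. Borders 100 kb downstream gave class II a density ratio of 0.468 and a very early and early share of 0%. With borders 100 kb upstream that share was 71.4%. Chosen after the data were examined, leaving out the 2 fullest bins (31900001 to 32100000) turned the class III ratio to 0.935. It gave a very early and early share of 46.5% for the complex and a shared fraction of 31.37% for class III. Leaving out the last 100 kb gave class II a ratio of 0.0974. No paired analysis was possible because both replicates enter the lists as 1 shared set, and neither library could be left out. The planned change of distance to a gene start was not run, since no gene was assigned. Read depth is unknown, and class II rests on 10 intervals.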
